A study of Mus musculus with 11 samples.

Results

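Germ granules are RNA-rich bodies of germ cells, and many of their proteins carry Tudor domains. The genes described here are 8 such genes, Tdrd1, Tdrd5, Tdrd6, Tdrd7, Tdrd9, Tdrkh, Rnf17 and Stk31. They were measured in newborn mouse ovaries lacking Sohlh1 or Sohlh2 and in wild-type ovaries. Every probe annotated with one of these symbols was taken, which gave 15 of the 45281 probes on the array, and all 8 genes were among the 13350 genes that could be tested. Total RNA was measured on Illumina MouseWG-6 v2 expression arrays, and the groups were Sohlh1 KO (n = 4), Sohlh2 KO (n = 3) and wild type (n = 4). All mice were newborn and of the labelled strain C57BL/6/129S6/SvEv, and the tissue was the whole ovary. The labels describe neither the deleted alleles nor whether replicates came from separate animals, so the p-values measure the spread between these samples, which may be technical.

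Tudor domains are pockets that bind methylated arginine, and in germ granules they dock onto the methylated tails of Piwi proteins. Piwi proteins carry piRNAs, small RNAs that guide the silencing of transposons, and Tudor proteins act as the scaffold on which piRNAs are made, trimmed and loaded. Most of what is known of these genes comes from the mouse testis, where loss of several of them blocks sperm formation. Both Sohlh1 and Sohlh2 are transcription factors with a basic helix-loop-helix domain, made in early germ cells, and in the ovary they are needed for primordial oocytes to begin growth.

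Values are quantile-normalized log2 intensities after background correction, and each difference is on that log2 scale, so that 1 unit is a doubling. Genes were tested with limma across all 13350 genes, and a gene was called when its p-value, adjusted by the Benjamini-Hochberg method over all of them, was under 0.05. The share of probes above background was 46.9 to 49.3% on Sohlh1 KO arrays, 45.2 to 48.1% on Sohlh2 KO arrays and 48.7 to 52.6% on wild-type arrays. Sohlh1, the gene targeted in the first line, was 5.94-fold lower in Sohlh1 KO ovaries and 5.90-fold lower in Sohlh2 KO ovaries than in wild type. Sohlh2 was above background on 0 of the 3 Sohlh2 KO arrays, 4 of the 4 Sohlh1 KO arrays and 3 of the 4 wild-type arrays. Sohlh2 rose 1.62-fold in Sohlh1 KO ovaries (adjusted p = 0.0115) and did not differ by the test between Sohlh2 KO and wild-type ovaries (adjusted p = 0.284). Between the knockouts neither gene differed by the test (adjusted p = 0.997 for Sohlh1 and 0.0811 for Sohlh2). Whether either probe lies in a deleted stretch is not known here, so these values do not check either knockout label. The number that opens each column name of the intensity data was taken as the chip, which placed the arrays on 2 BeadChips. The first held Sohlh1 KO 1 and 2 and all wild-type arrays, and the second held Sohlh1 KO 3 and 4 and all Sohlh2 KO arrays. No chip held both Sohlh2 KO and wild-type ovaries, so that comparison crosses chips and can be set on a common footing only through the Sohlh1 KO arrays.

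In Sohlh1 KO ovaries, Stk31, Tdrd9, Tdrkh, Tdrd7 and Rnf17 rose and Tdrd5 fell against wild type, while Tdrd1 and Tdrd6 did not pass the test. That is 6 of 8 genes called, beside 32.7% of all genes tested, with 5 higher beside 16.3% and 1 lower beside 16.4%. In Sohlh2 KO ovaries Stk31, Tdrd9, Tdrkh and Tdrd7 rose and Tdrd5 fell, which is 5 of 8 genes called beside 25.5% of all genes, with 4 higher beside 12.5% and 1 lower beside 13.0%. Sohlh1 KO and wild-type arrays did not overlap for 5 of the 8 genes, beside 31.0% of all genes, and Sohlh2 KO and wild-type arrays for 6, beside 43.4%. The changes ranged in size from a 3.75-fold rise of Stk31 in Sohlh1 KO ovaries to a 1.32-fold rise of Tdrd7 in the same ovaries. Both comparisons use the same 4 wild-type arrays, so they are not independent of each other. In whole-ovary RNA, a change in the number of cells of a type and a change in the RNA per cell cannot be told apart.

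**Figure D1:**
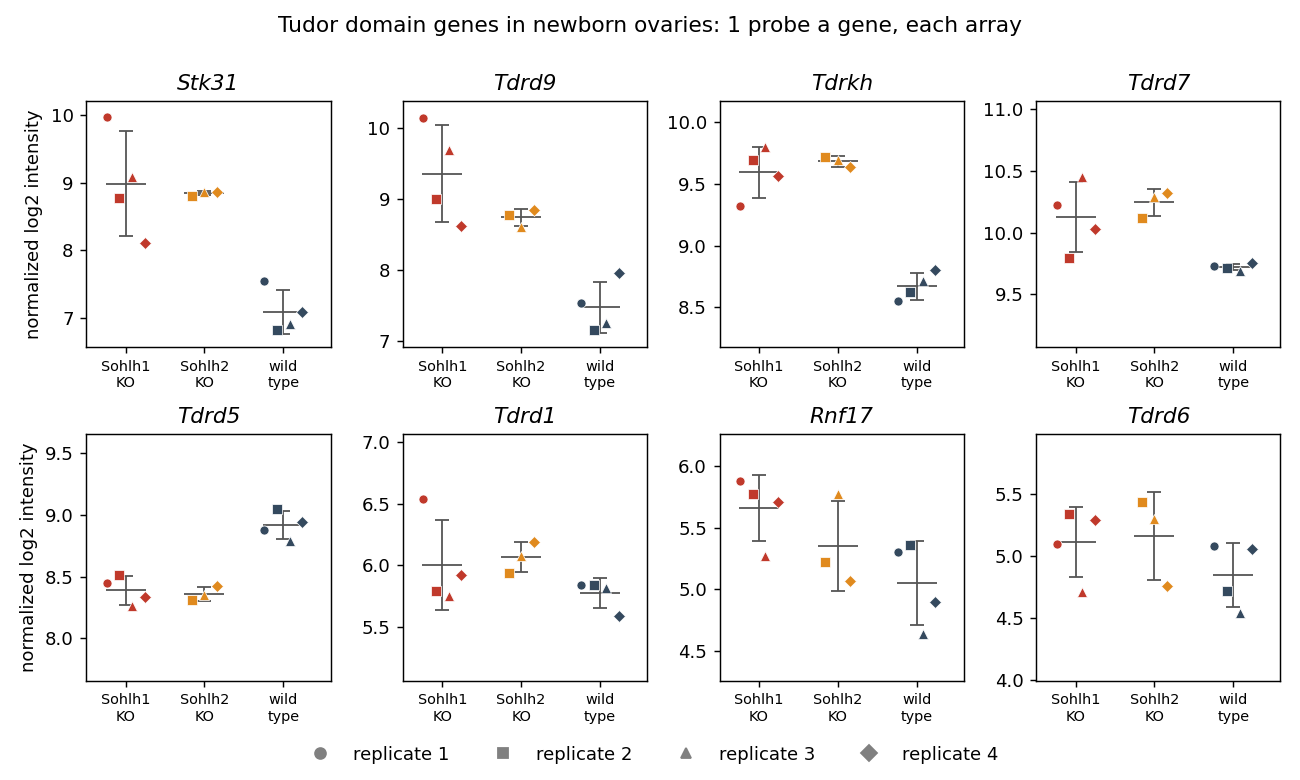
Normalized log2 intensity (vertical axis, a separate scale for each gene) of the tested probe of each of the 8 genes on the 11 arrays, by genotype; horizontal bars are group means and error bars are 1 SD. All 7 knockout arrays lie above all 4 wild-type arrays for Stk31, Tdrd9, Tdrkh and Tdrd7, and below them for Tdrd5, whereas the ranges of the 3 groups overlap for Rnf17 and Tdrd6.

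The promoters of 4 genes called in both knockouts are shown here with that of Tdrd1, which was not called, because basic helix-loop-helix factors bind E-boxes. Tdrd7, also called in both knockouts, is not printed. The stretches are the 250 bases before the start on which each promoter window was set, 5′ to 3′ on the strand of the gene (GRCm38.p6). Distances below are counted from that start, which is not always the outer edge of the gene. The Tdrd5 stretch lies inside the RefSeq span of its gene (156255296 to 156304304). The spans of Stk31, Tdrd9 and Tdrd1 begin within their stretches, at 49395506, 111971488 and 56826171. Capitals mark the E-box letters CANNTG, which include CACGTG, and the letters TTCCCGC, the core of sites of E2F factors. Both strands were searched.
Stk31 promoter, chr6:49395289-49395538, plus strand: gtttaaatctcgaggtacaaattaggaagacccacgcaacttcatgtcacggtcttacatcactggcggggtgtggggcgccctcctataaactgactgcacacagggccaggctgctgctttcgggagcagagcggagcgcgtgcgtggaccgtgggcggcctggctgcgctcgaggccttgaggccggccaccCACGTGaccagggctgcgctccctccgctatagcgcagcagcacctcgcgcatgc
Tdrd9 promoter, chr12:111971309-111971558, plus strand: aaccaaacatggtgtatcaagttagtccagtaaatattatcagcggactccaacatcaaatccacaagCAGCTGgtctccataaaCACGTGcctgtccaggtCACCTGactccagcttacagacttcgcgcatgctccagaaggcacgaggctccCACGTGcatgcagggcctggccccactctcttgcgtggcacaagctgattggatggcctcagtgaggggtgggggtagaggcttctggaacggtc
Tdrkh promoter, chr3:94412994-94413243, plus strand: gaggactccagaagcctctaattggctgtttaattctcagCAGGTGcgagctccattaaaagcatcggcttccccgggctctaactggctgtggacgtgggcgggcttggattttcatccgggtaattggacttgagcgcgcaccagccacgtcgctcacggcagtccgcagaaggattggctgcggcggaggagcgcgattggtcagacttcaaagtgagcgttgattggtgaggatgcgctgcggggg
Tdrd5 promoter, chr1:156303349-156303598, minus strand: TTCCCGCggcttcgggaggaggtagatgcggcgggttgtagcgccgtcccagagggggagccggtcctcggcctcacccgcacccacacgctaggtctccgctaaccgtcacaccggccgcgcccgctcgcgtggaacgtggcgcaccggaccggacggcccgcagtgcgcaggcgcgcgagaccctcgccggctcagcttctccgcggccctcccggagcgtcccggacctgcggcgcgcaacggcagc
Tdrd1 promoter, chr19:56825959-56826208, plus strand: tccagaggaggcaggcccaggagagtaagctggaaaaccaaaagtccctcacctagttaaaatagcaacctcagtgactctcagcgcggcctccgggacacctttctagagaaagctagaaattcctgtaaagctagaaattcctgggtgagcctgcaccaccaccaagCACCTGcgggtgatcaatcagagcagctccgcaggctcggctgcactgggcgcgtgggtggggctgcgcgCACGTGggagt
Among the 32851 windows of 300 bases in the same table, 72.3% held CANNTG, 7.2% held CACGTG and 4.6% held TTCCCGC. RefSeq windows were given for 6 of the 8 genes, 11 windows in all. CANNTG was found in 5 of these 6 genes, beside 75.0% of all genes with a window, which is a share near the background. CACGTG, the E-box form bound by MAX and its partners, was found in Stk31, Tdrd9 and Tdrd1, 3 of the 6 genes, beside 8.09% of all genes. By window it was 5 of 11 beside 7.2%. These shares are not like for like. The 6 genes had 11 windows while the 27025 genes in all had 32851. CACGTG also holds a CG, and most of the 11 windows were richer in CG than the median window. CACGTG stood once before Stk31, starting 55 bases before the start, at 165 and 95 bases before the start of Tdrd9, and 11 bases before that of Tdrd1. Stk31 and Tdrd9 rose in both knockouts, and Tdrd1, with the same letters, was not called in either. Tdrd7, which rose in both, had no CACGTG in any of its windows. Tdrkh, which rose, held 1 E-box of another form, CAGGTG, 210 bases before its start. Tdrd5, which fell, held TTCCCGC at 250 bases before its start and no CANNTG in its window. The Tdrd5 window had 48 CG dinucleotides against a median of 7 over all windows. The other printed genes were above that median too, with 29 for Stk31, 25 for Tdrkh, 20 for Tdrd1 and 10 for Tdrd9. These matches are letters in a sequence, and binding of any factor was not measured in these samples.

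The first genes by role are those whose proteins join a Tudor domain to another kind of domain. Stk31, which pairs a Tudor domain with a kinase-like domain, had normalized log2 intensities of 9.97, 8.78, 9.09 and 8.11 in Sohlh1 KO ovaries 1 to 4, 8.81, 8.87 and 8.87 in Sohlh2 KO ovaries 2 to 4, and 7.55, 6.81, 6.90 and 7.08 in wild-type ovaries 1 to 4. The lowest knockout array lay above the highest wild-type array, and the Sohlh1 KO arrays spanned 1.86 units while the Sohlh2 KO arrays spanned 0.0575. Means were 8.99 ± 0.774 in Sohlh1 KO (SD, n = 4), 8.85 ± 0.0321 in Sohlh2 KO (n = 3) and 7.08 ± 0.329 in wild type (n = 4). The log2 difference was 1.90 in Sohlh1 KO ovaries, a 3.75-fold rise (SE 0.303, adjusted p = 0.000329), and 1.77 in Sohlh2 KO ovaries, a 3.40-fold rise (SE 0.328, adjusted p = 0.00142). By its log2 difference Stk31 ranked 128th from the top of all 13350 genes in Sohlh1 KO and 117th in Sohlh2 KO. With the chip as a block, the Sohlh2 KO difference was 2.54 (adjusted p = 0.00438), a fold more than 1.5 times as large. Without background correction the differences were smaller, 1.31 in Sohlh1 KO and 1.17 in Sohlh2 KO, and both were called. A second Stk31 probe was above background on 1 array, Sohlh2 KO 3, and gave no measure of a difference.

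Tdrd9 encodes a helicase with a Tudor domain that acts in piRNA-guided silencing of transposons. Its values were 10.14, 9.0, 9.69 and 8.62 in Sohlh1 KO ovaries, 8.78, 8.61 and 8.84 in Sohlh2 KO ovaries, and 7.53, 7.16, 7.25 and 7.96 in wild-type ovaries. All knockout arrays lay above all wild-type arrays, and the 4 Sohlh1 KO arrays stood in the same order as for Stk31, with array 1 highest, then 3, 2 and 4. Tdrd9 averaged 9.36 ± 0.684 in Sohlh1 KO (SD, n = 4), 8.74 ± 0.118 in Sohlh2 KO (n = 3) and 7.47 ± 0.361 in wild type (n = 4). It rose by 1.89 log2 units in Sohlh1 KO, or 3.69-fold (SE 0.283, adjusted p = 0.000205), and by 1.27 in Sohlh2 KO, or 2.41-fold (SE 0.306, adjusted p = 0.00833). Its rank was 129th from the top in Sohlh1 KO and 244th in Sohlh2 KO. The Sohlh2 KO call was lost without wild-type arrays 2 and 3, the arrays whose titles carry an unexplained letter (1.00, adjusted p = 0.108).

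Array 1 of the Sohlh1 KO group was also the highest of all 11 arrays for the germ cell markers Dazl and Ddx4, whereas for Rec8, the third germ cell marker tested, it was the lowest of the 7 knockout arrays (8.18, beside 8.27 to 9.41 on the others). That trait was not particular to germ cell markers. Array 1 was also the highest of the 11 for the pregranulosa cell markers Foxl2 (7.10), Gata4 (7.33), Wnt4 and Nr5a1. It was not the highest for Fst, Amhr2 or Rspo1, the other pregranulosa cell markers tested. Without that array, the Sohlh1 KO difference was 1.58 for Stk31 (adjusted p = 0.00027) and 1.62 for Tdrd9 (adjusted p = 0.000393), so both rises were called without it. The number of genes of the 8 that were called in Sohlh1 KO ovaries was 4 without it, since Rnf17 (adjusted p = 0.0798) and Tdrd7 (adjusted p = 0.065) then missed the threshold.

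Tdrkh, also known as Tdrd2, joins a Tudor domain to KH RNA-binding domains, sits on mitochondria and is needed for trimming the 3′ ends of piRNAs. The tested probe read 9.32, 9.69, 9.80 and 9.56 in Sohlh1 KO ovaries, 9.72, 9.69 and 9.64 in Sohlh2 KO ovaries, and 8.55, 8.62, 8.71 and 8.80 in wild-type ovaries. Groups did not overlap between knockout and wild type, and the arrays within each group lay closer together than for Stk31 or Tdrd9 in the Sohlh1 KO and wild-type groups. By this probe Tdrkh rose by 0.92 log2 units in Sohlh1 KO ovaries, or 1.89-fold (SE 0.123, adjusted p = 7.71e-05), and by 1.01 in Sohlh2 KO ovaries, or 2.02-fold (SE 0.133, adjusted p = 8.72e-05). A second probe, tested across all 24451 probes kept, had its own values of 8.75, 8.21, 8.64 and 8.09 in Sohlh1 KO, 8.16, 8.15 and 8.17 in Sohlh2 KO, and 7.44, 7.39, 7.27 and 7.24 in wild type. Among those probes 29.2% were called in Sohlh1 KO and 22.8% in Sohlh2 KO. This probe rose too, by 1.08 (SE 0.151, adjusted p = 0.000112) in Sohlh1 KO and 0.82 (SE 0.163, adjusted p = 0.00251) in Sohlh2 KO. In the Sohlh1 KO group the probes ordered the arrays differently: array 1 was lowest by the first probe and highest by the second. The remaining Tdrkh probe was above background on 0 of 11 arrays and lay between 4.40 and 4.58 throughout.

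**Figure D2:**
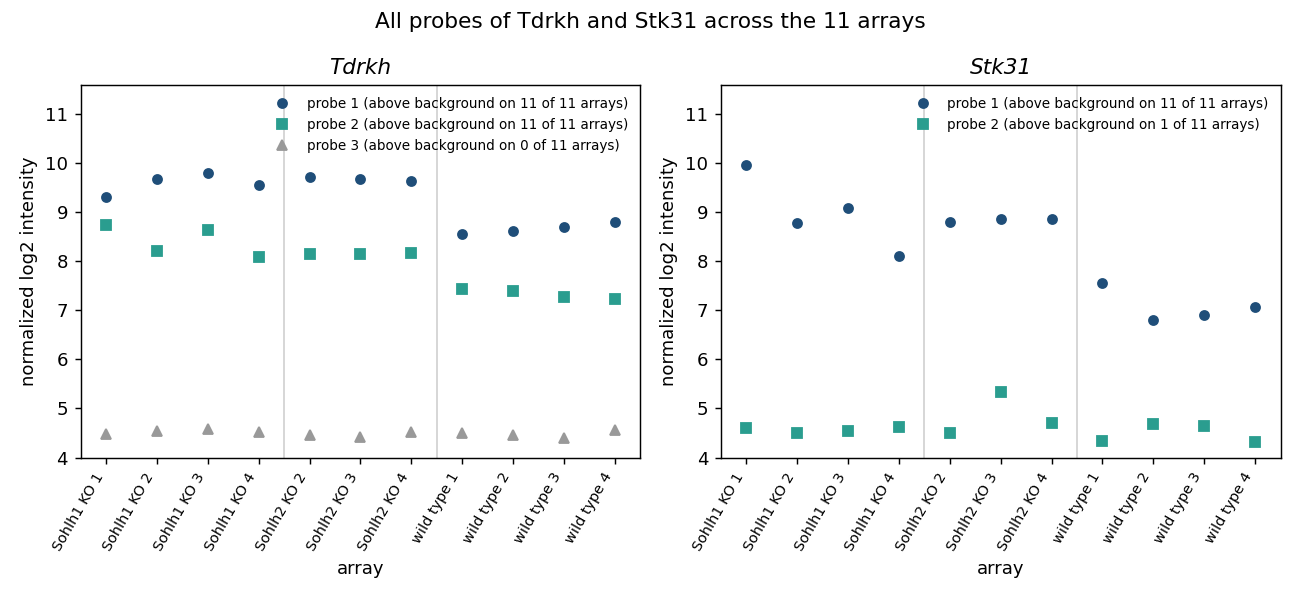
Normalized log2 intensity (vertical axis) of every probe of Tdrkh (left) and Stk31 (right) on each of the 11 arrays (horizontal axis); thin vertical lines part the genotype groups. Tdrkh probes 1 and 2 are higher on every knockout array than on every wild-type array, while Tdrkh probe 3 and Stk31 probe 2 stay near the floor apart from the 5.33 of Stk31 probe 2 on Sohlh2 KO 3.

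Rnf17, also known as Tdrd4, combines a RING domain with Tudor domains and is needed for the maturation of round spermatids in the mouse testis. It was near the limit of detection, above background on 4 of 4 Sohlh1 KO, 1 of 3 Sohlh2 KO and 2 of 4 wild-type arrays. The values were 5.88, 5.77, 5.27 and 5.71 in Sohlh1 KO ovaries, 5.22, 5.77 and 5.07 in Sohlh2 KO ovaries, and 5.30, 5.36, 4.64 and 4.90 in wild-type ovaries. One Sohlh1 KO array lay below the highest wild-type arrays, so those groups overlapped. Rnf17 rose 1.52-fold in Sohlh1 KO ovaries (log2 difference 0.61, SE 0.203, adjusted p = 0.0356), and in Sohlh2 KO ovaries the difference was 0.30 (SE 0.219, adjusted p = 0.348). The Sohlh1 KO call held under 15 of 23 alternative settings, and without background correction the difference was 0.18 (adjusted p = 0.0887). The call was also lost on leaving out Sohlh1 KO 1, 2 or 4 or wild type 3 or 4, 1 at a time (adjusted p up to 0.108). Its other 2 probes were above background on 0 arrays.

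Tdrd5 and Tdrd7 both carry LOTUS domains, which in flies bind the germ granule helicase Vasa, beside their Tudor domains. Tdrd5 is needed for transposon silencing in mouse male germ cells. Its values were 8.45, 8.51, 8.26 and 8.33 in Sohlh1 KO ovaries, 8.31, 8.35 and 8.42 in Sohlh2 KO ovaries, and 8.88, 9.05, 8.79 and 8.94 in wild-type ovaries. Every knockout array lay below every wild-type array, and the spread within each group was at most 0.116 (SD). Tdrd5 fell by 0.53 on the log2 scale in Sohlh1 KO ovaries, a 1.44-fold decrease (SE 0.110, adjusted p = 0.00246). It fell by 0.56 in Sohlh2 KO ovaries, a 1.47-fold decrease (SE 0.118, adjusted p = 0.00368). It was the only one of the 8 genes called lower, in either knockout. With the chip as a block the Sohlh2 KO difference was -0.37 (adjusted p = 0.231), and within the first chip alone, with 2 Sohlh1 KO and 4 wild-type arrays, the Sohlh1 KO call was lost (adjusted p = 0.0741).

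Tdrd7 acts in germ granule assembly and is also expressed in the lens, where its loss causes cataract. It read 10.22, 9.79, 10.45 and 10.03 in Sohlh1 KO ovaries, 10.12, 10.29 and 10.32 in Sohlh2 KO ovaries, and 9.73, 9.71, 9.69 and 9.75 in wild-type ovaries. The wild-type arrays had an SD of 0.0253 and lay below all knockout arrays, though Sohlh1 KO 2 was only just above them. Tdrd7 rose by 0.41 log2 units in Sohlh1 KO ovaries (1.32-fold, SE 0.138, adjusted p = 0.0385) and by 0.53 in Sohlh2 KO ovaries (1.44-fold, SE 0.149, adjusted p = 0.0206). With the chip as a block neither was called (adjusted p = 0.218 in Sohlh1 KO and 0.489 in Sohlh2 KO). Across the 23 alternatives for Sohlh1 KO, 10 kept the call. It was lost on leaving out Sohlh1 KO 1 or 3, Sohlh2 KO 3 or 4, or any wild-type array (adjusted p up to 0.107), and the Sohlh2 KO call was lost without Sohlh2 KO 3 or 4 (adjusted p up to 0.0803).

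Tdrd1 and Tdrd6 are built mainly of repeated Tudor domains. Tdrd1, which adds a MYND zinc finger, binds the Piwi protein Piwil2 in the mouse testis. It read 6.54, 5.79, 5.75 and 5.92 in Sohlh1 KO ovaries, 5.94, 6.08 and 6.19 in Sohlh2 KO ovaries, and 5.84, 5.84, 5.82 and 5.59 in wild-type ovaries. The Sohlh2 KO arrays all lay above the wild-type arrays, and the Sohlh1 KO arrays overlapped both. The difference was 0.23 in Sohlh1 KO (95% interval -0.13 to 0.58, adjusted p = 0.329) and 0.29 in Sohlh2 KO (95% interval -0.09 to 0.68, adjusted p = 0.258), so neither was called. Without Sohlh1 KO 1 the first difference was 0.05. The other 2 Tdrd1 probes, matched to another transcript in the array's design, were above background on 0 arrays.

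Tdrd6 is a scaffold of the chromatoid body, the germ granule of spermatids. Its values of 5.10, 5.34, 4.71 and 5.29 in Sohlh1 KO ovaries and 5.44, 5.30 and 4.76 in Sohlh2 KO ovaries overlapped the wild-type values of 5.08, 4.72, 4.54 and 5.06. It was above background on 3 of 4 Sohlh1 KO, 2 of 3 Sohlh2 KO and 1 of 4 wild-type arrays. The difference was 0.26 in Sohlh1 KO (95% interval -0.15 to 0.68, adjusted p = 0.318) and 0.32 in Sohlh2 KO (95% interval -0.13 to 0.76, adjusted p = 0.287).

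Set against each other, the knockouts gave no called difference for any of the 8 genes by limma, beside 0.0375% of all genes called, and 0 of the 8 had an unadjusted p-value under 0.05, beside 8.51% of all genes. The ranges of Sohlh1 KO and Sohlh2 KO arrays overlapped for all 8, where 7.61% of all genes did not overlap. Tdrd9 was nearest to a difference, 0.62 higher in Sohlh1 KO than in Sohlh2 KO (95% interval -0.04 to 1.28, adjusted p = 0.628). The intervals were -0.57 to 0.85 for Stk31, -0.38 to 0.20 for Tdrkh, -0.44 to 0.20 for Tdrd7 and -0.23 to 0.29 for Tdrd5. Differences within these intervals are not excluded by the test. For Rnf17, called in Sohlh1 KO alone, the difference between the knockouts was 0.31 (95% interval -0.17 to 0.78, adjusted p = 0.775).

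**Figure D3:**
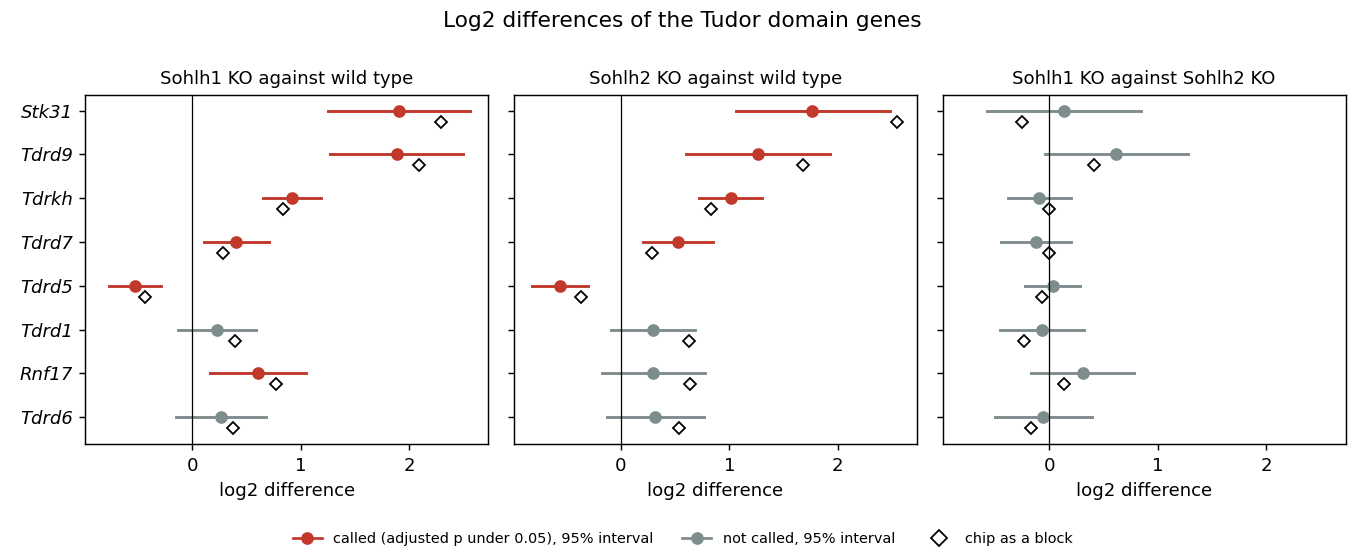
Log2 differences (horizontal axis) of the 8 genes: each knockout over wild type in the left and middle panels, and Sohlh1 KO over Sohlh2 KO at right; filled points are limma estimates with 95% intervals, red where called, and open diamonds are estimates with the chip as a block. In the panels against wild type, Stk31 and Tdrd9 lie farthest to the right and Tdrd5 alone lies left of 0, and every interval between the knockouts spans 0.

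Related genes were counted from lists chosen for their roles, and a few genes stand in more than 1 list. Over all genes, 16.3% were called higher and 16.4% lower in Sohlh1 KO, and 12.5% higher and 13.0% lower in Sohlh2 KO. Of 15 tested partners of the piRNA pathway and germ granule, 8 rose and 2 fell in Sohlh1 KO ovaries (median log2 difference 0.77, beside 0.03 over all genes), and 5 rose and 1 fell in Sohlh2 KO ovaries (median 0.33, beside 0.04). Higher in both were Gpat2, a mitochondrial acyltransferase that takes part in piRNA production (4.33-fold in Sohlh1 KO and 3.96-fold in Sohlh2 KO), and Ddx25, a helicase of the chromatoid body (4.16-fold in Sohlh1 KO and 3.88-fold in Sohlh2 KO). Asz1, a mitochondrial scaffold of piRNA production, rose 3.37-fold in Sohlh1 KO and 3.19-fold in Sohlh2 KO, and Tex19.1, which represses transposons, rose 2.75-fold in Sohlh1 KO and 2.19-fold in Sohlh2 KO. Piwil2, the Piwi protein that binds Tdrd1, read 9.83, 9.45, 9.46 and 9.20 in Sohlh1 KO, 8.88, 9.25 and 9.23 in Sohlh2 KO, and 7.75, 7.72, 7.85 and 8.57 in wild-type ovaries. It rose 2.85-fold in Sohlh1 KO (adjusted p = 6.14e-05), and the Sohlh2 KO rise was 2.21-fold (adjusted p = 0.00145) without any overlap with wild type. Mov10l1, the helicase that starts piRNA processing, rose 2.50-fold in Sohlh1 KO and had a difference of 0.96 in Sohlh2 KO (adjusted p = 0.098). Piwil4, another Piwi protein, rose 1.71-fold in Sohlh1 KO and had a difference of 0.33 in Sohlh2 KO (adjusted p = 0.108).

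The partners that fell were Wdr77, the cofactor of the methyltransferase Prmt5, by 0.79 in Sohlh1 KO and 0.61 in Sohlh2 KO on the log2 scale, and Tdrd12, a Tudor domain helicase of the piRNA pathway, by 0.49 in Sohlh1 KO alone (Sohlh2 KO difference -0.26, adjusted p = 0.198). Mael, Pld6 and Tex15 did not pass the filter on low values, and Fkbp6 had no probe. Methylated arginine is made by arginine methyltransferases, and which of them mark the Piwi proteins was not measured here. The 8 tested genes listed for this family were 7 methyltransferases and the cofactor Wdr77. In Sohlh1 KO 2 rose and 2 fell, beside 16.3% and 16.4% of all genes. In Sohlh2 KO 2 rose and 1 fell, beside 12.5% and 13.0% of all genes. Prmt6 rose 1.84-fold in Sohlh1 KO and 1.70-fold in Sohlh2 KO, and Carm1 rose 1.65-fold in Sohlh1 KO and 1.73-fold in Sohlh2 KO. Wdr77 fell in both, and Prmt2 fell in Sohlh1 KO. With the chip as a block, Prmt6 rose in Sohlh1 KO while Carm1 was not called there (adjusted p = 0.0536), and 0 of the 8 were called in Sohlh2 KO, beside 12.8% of all genes under that block. Prmt5, which makes the symmetric mark on Piwi proteins, had differences of 0.00069 in Sohlh1 KO (adjusted p = 0.998) and -0.08 in Sohlh2 KO (adjusted p = 0.778).

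Tudor domain genes other than the 8, most of them readers of chromatin, were counted in the same way. Of 18 tested, 5 rose and 3 fell in Sohlh1 KO ovaries (median 0.09), beside 16.3% and 16.4% of all genes. In Sohlh2 KO ovaries 3 rose and 2 fell (median -0.0047), beside 12.5% and 13.0%. The share called in Sohlh2 KO is near the 25.5% of all genes called either way. For the 8 germ granule genes the median was 0.51 in Sohlh1 KO and 0.42 in Sohlh2 KO. Kdm4a, a histone demethylase with Tudor domains, rose 1.79-fold in Sohlh1 KO and 1.85-fold in Sohlh2 KO, and Phf19, a Polycomb-associated reader, rose 1.50-fold in Sohlh1 KO and 1.61-fold in Sohlh2 KO. Uhrf1, which reads hemimethylated DNA, fell 1.56-fold in Sohlh1 KO and 1.39-fold in Sohlh2 KO. With the chip as a block, 1 of these 18 was called in Sohlh2 KO, Arid4b, which rose by 1.10 (adjusted p = 0.0377). Kdm4a (adjusted p = 0.0802), Phf19 (adjusted p = 0.178) and Uhrf1 (adjusted p = 0.152) then missed the threshold in Sohlh2 KO. For the 15 partners the block gave 8 rising and 2 falling in Sohlh1 KO and 6 rising and 0 falling in Sohlh2 KO. Under the block 26.9% of all genes were called in Sohlh1 KO and 12.8% in Sohlh2 KO.

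**Figure D4:**
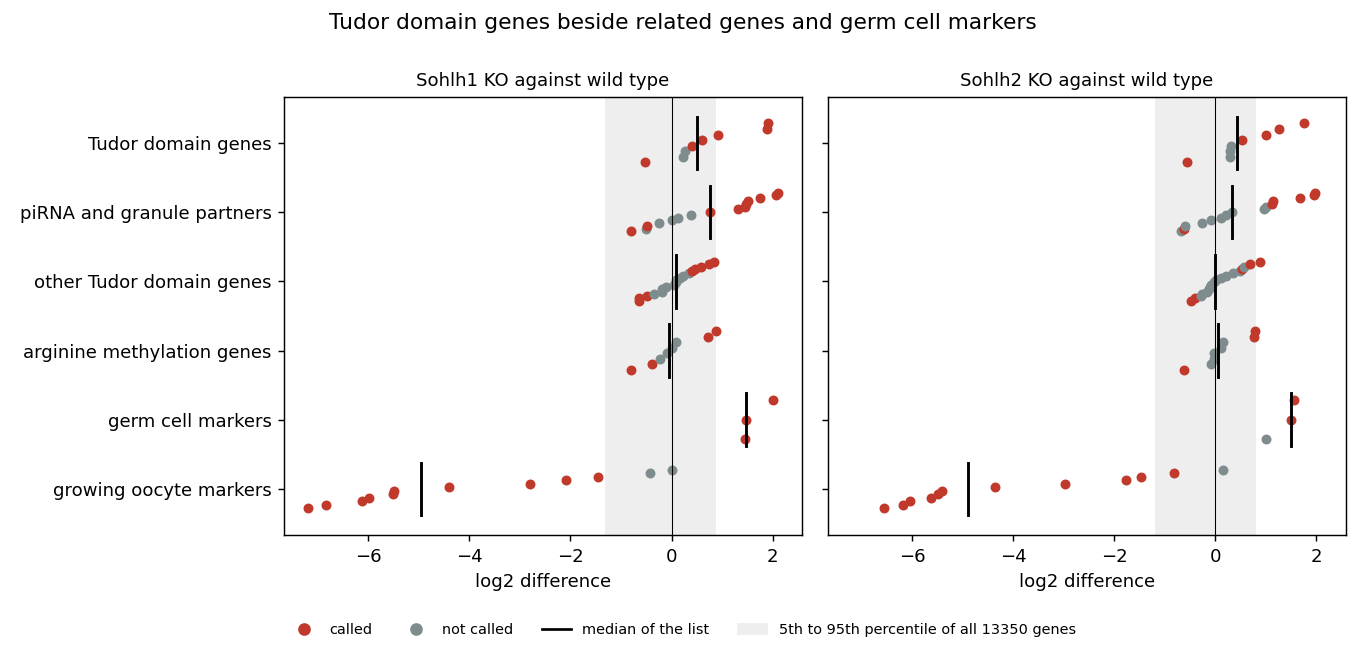
Log2 differences against wild type (horizontal axis) of each tested gene in 6 lists, for Sohlh1 KO (left) and Sohlh2 KO (right); red points were called, grey points were not, black bars are list medians, and the shaded band spans the 5th to the 95th percentile of all 13350 genes. All tested germ cell markers and several germ granule Tudor genes and piRNA partners lie to the right of the band, as do Prmt6 in Sohlh1 KO and Kdm4a in Sohlh2 KO, whereas most growing oocyte markers lie to the left of it.

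The 3 germ cell markers that could be tested had higher means in both knockouts than in wild type. So had the 8 genes apart from Tdrd5, though Tdrd1, Tdrd6 and, in Sohlh2 KO, Rnf17 were not called. Dazl, an RNA-binding protein of germ cells, read 12.07, 10.94, 10.91 and 10.63 in Sohlh1 KO ovaries, 10.86, 10.69 and 10.40 in Sohlh2 KO ovaries, and 9.12, 9.02, 8.99 and 9.42 in wild-type ovaries. It rose 4.01-fold in Sohlh1 KO (adjusted p = 4.95e-05), and the Sohlh2 KO rise was 2.85-fold (adjusted p = 0.00126). Ddx4, the mouse Vasa, read 9.30, 8.07, 7.63 and 7.30 in Sohlh1 KO, 7.62, 7.62 and 7.59 in Sohlh2 KO, and 7.06, 6.43, 6.58 and 6.37 in wild type, and it rose 2.77-fold in Sohlh1 KO (adjusted p = 0.00429). In Sohlh2 KO its difference was 1.00 (adjusted p = 0.0572), but with the chip as a block it was 2.22 and called (adjusted p = 0.00437). Rec8 rose by 1.46 in Sohlh1 KO (adjusted p = 0.00318) and by 1.56 in Sohlh2 KO (adjusted p = 0.00439). With the chip as a block the Sohlh2 KO call of Rec8 was lost (1.62, adjusted p = 0.0968). The summed log2 intensity of the 3 germ cell markers that could be tested, Dazl, Ddx4 and Rec8, was 11.09 to 12.35 in Sohlh1 KO, 11.08 to 11.21 in Sohlh2 KO and 9.54 to 9.81 in wild type. The other 3 markers of that list, Mael, Sycp3 and Hormad1, were above background on 0 of 11 arrays. Their part in the changes of the Tudor domain genes was not tested.

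Markers of growing oocytes moved the other way: 10 of 12 fell in Sohlh1 KO and 11 of 12 in Sohlh2 KO, and none rose. Their median log2 difference was -4.96 in Sohlh1 KO, or -4.84 with the 2 genes that were not well above background on any Sohlh1 KO array at their bound, and -4.88 in Sohlh2 KO. Tdrd5, the only one of the 8 called lower, fell far less, by 0.53 in Sohlh1 KO and 0.56 in Sohlh2 KO. Markers of several other cell types also fell, as given below, and a link of Tdrd5 to any of them was not tested. Markers of other cell types were counted too, beside all genes, of which 16.3% rose and 16.4% fell in Sohlh1 KO. In Sohlh2 KO 12.5% of all genes rose and 13.0% fell. Of the blood markers, 3 of 3 red blood cell genes and 3 of 4 leukocyte genes rose in Sohlh1 KO and 2 of 3 and 2 of 4 in Sohlh2 KO. Once the chip was a block, 2 of the 4 leukocyte genes rose in Sohlh1 KO and 0 of 4 were called in Sohlh2 KO, where S100a8 had a difference of 1.67 (adjusted p = 0.438). With that block 26.9% of all genes were called in Sohlh1 KO and 12.8% in Sohlh2 KO. All 4 multiciliated cell genes, 2 of 4 fat genes and 2 of 3 Sertoli cell genes fell in each knockout, and smooth muscle genes fell for 3 of 4 in Sohlh1 KO and 2 of 4 in Sohlh2 KO. Of 7 pregranulosa cell genes 2 rose in each knockout and none fell. That share is near those of all genes called either way, 32.7% in Sohlh1 KO and 25.5% in Sohlh2 KO. Of 2 endothelial genes 2 rose in Sohlh1 KO and 1 in Sohlh2 KO. Under the same block 3 pregranulosa cell genes rose in Sohlh1 KO, and in Sohlh2 KO 1 rose and 1, Fst, fell by 0.86 (adjusted p = 0.0246). The block left 1 of the 2 endothelial genes called in each knockout and called 3 of 4 smooth muscle genes lower in Sohlh2 KO. The part of these shifts in the values of the Tudor domain genes was not tested.

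Genes whose pattern over the 11 arrays was most like each Tudor domain gene were taken by Pearson's correlation, as a description in which all points share the same 3 groups. For Stk31 these were Homer1 (r = 0.983), a synaptic scaffold gene, and Dennd5a (r = 0.981), and their Sohlh1 KO differences, 0.47 for Homer1 and 0.57 for Dennd5a, were smaller than that of Stk31. Tdrd9 was most like Plekhg4 (r = 0.979) and Smc1b (r = 0.977), the meiotic cohesin subunit, which rose by 1.35 in Sohlh1 KO and 1.05 in Sohlh2 KO. Tdrkh was most like Fbxw7 (r = 0.988), a ubiquitin ligase subunit, and Grik1 (r = 0.986), a glutamate receptor subunit. Tdrd5, which fell, was most like Vwa3a (r = 0.987), with differences of -1.64 in Sohlh1 KO and -1.78 in Sohlh2 KO, and Rimkla (r = 0.983). For the genes at lower signal or with smaller changes the nearest were Dcpp3 for Tdrd7 (r = 0.970), Smc6 for Tdrd1 (r = 0.963), Capza1 for Tdrd6 (r = 0.940) and Aptx for Rnf17 (r = 0.911). Second in likeness were Kcnt1 for Tdrd7 (r = 0.947), Entpd6 for Tdrd1 (r = 0.962), Ranbp6 for Tdrd6 (r = 0.877) and Kdsr for Rnf17 (r = 0.904).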

How the data were processed

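The authors deposited 1 table of linear intensity per probe (45281 probes) for 11 newborn ovary samples, read with BeadStudio 3.2 per the submitters' processing notes; other steps are not given in the sources used here. The deposited intensity distributions differed by at most 11.2 units between arrays at the same rank, so the table was already quantile normalized although its name says otherwise, and a shift of all genes could not be seen. The deposited series matrix held log2 of the same intensities, to within 0.005, and served as an alternative.

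Since no detection p-values were in the files, 1276 olfactory receptor probes served as negatives, chosen once the file had been read. Intensities were background-corrected with normexp (offset 16), and arrays were quantile normalized and log2 transformed (limma 3.58.1, statmod 1.5.0, R 4.3.3). Probes above the 95th percentile of the negatives on at least 3 arrays were kept (24451). The kept probe with the highest mean stood for its gene (13350 genes, 5169 of them with several kept probes). In the platform annotation 34885 probes had 1 symbol, 18 had several and 10378 had none. One limma fit over the 3 groups (8 residual degrees of freedom) gave moderated tests, two-sided, with Benjamini-Hochberg adjustment over all genes; the number of arrays limits the precision. The scripts were tested on simulated data.

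All 8 genes with every probe were named, with Sohlh1, Sohlh2, Ddx4, Dazl, called members of the lists, and for each of the 8 genes the 2 genes with the highest Pearson correlation. Genes and lists were chosen with earlier results of these data known. Alternatives were no background correction, other scalings, filters and probe choices, the series matrix, the chip or the replicate number as a block, within-chip fits, the compared groups alone, and leaving out each array or wild-type arrays 2 and 3. Replicate numbers were checked as pairs and did not pair the samples.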

Additional observations from a re-analysis of the deposited data

Results flagged for a closer look

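Of 16 groups of 4 arrays examined, the 8 genes in Sohlh1 KO and in wild type, 1 held an array standing apart from the others. For Tdrd1, wild type 4 (5.59) lay below the other 3 wild-type arrays (5.82 to 5.84), a gap of 0.918 of the group's range, past Dixon's critical value for 4 arrays. Chance alone marks about 1 in 20 groups. Tdrd1 was not called in any comparison.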

How the results depend on the processing

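The arrays number 3 or 4 a group, and Sohlh2 KO and wild type share no chip, so the Sohlh2 KO values lean on the Sohlh1 KO arrays once the chip is a term. Of the 8 genes, Rnf17 and Tdrd6 lay near background. Over all alternatives run, the values of the 8 genes kept their direction and their side of the threshold in 161 of the Sohlh1 KO tests against wild type and lost the call in 22, and in 169 and 6 of the Sohlh2 KO tests; 0 reversed. The tests that kept their side include those of genes that were not called, such as Tdrd1 and Tdrd6. The Sohlh1 KO calls of Stk31, Tdrd9 and Tdrkh held in all 23 alternatives, and the Sohlh2 KO calls of Stk31 and Tdrkh in all 22. These alternatives are not independent checks. Leaving out a Sohlh2 KO array cannot change a Sohlh1 KO difference from wild type, and the series matrix nearly repeats the fit without background correction. The number of the 8 genes called in Sohlh2 KO was 3 with the chip as a block (beside 12.8% of all genes) and 3 without wild type 2 and 3, against 5. Leaving out 1 array at a time gave 4 to 6 in Sohlh1 KO, 4 to 5 in Sohlh2 KO and 0 between the knockouts. Over all genes, 3429 to 4732 were then called in Sohlh1 KO, 2437 to 4129 in Sohlh2 KO and 1 to 69 between the knockouts, the 69 without Sohlh1 KO 1. In Sohlh1 KO 2540 genes were called without wild type 2 and 3. In Sohlh2 KO 1868 were called without them and 1712 with the chip as a block. Over all kept probes 7144, 5572 and 13 were called in Sohlh1 KO, Sohlh2 KO and between the knockouts. Between the knockouts 5 genes were called, against 26 with the chip as a block, 21 within the second chip, 8 with cyclic loess, 2 without wild type 2 and 3, and 1 each with no background correction, the groups compared alone or the series matrix. Cyclic loess moved the Sohlh2 KO split to 1233 genes higher and 2004 lower, against 1671 and 1732. With the replicate number as a block, 4330, 3160 and 7 genes and 6, 5 and 0 of the 8 were called in Sohlh1 KO, Sohlh2 KO and between the knockouts; the numbers did not pair the samples (correlations of deviations -0.201 to 0.129, with 3 of 8 arrays of Sohlh1 KO and wild type closest to their own number). Uncalled differences between the knockouts changed sign 12 times. Stk31 was -0.25 with the chip as a block and within the second chip, -0.104 with the replicate block, and -0.190 (without Sohlh1 KO 1) to 0.431 on leaving out 1 array. Tdrd5 was -0.0649 with the chip as a block and within the second chip, and -0.0123 (without Sohlh1 KO 2) to 0.0728 on leaving out 1 array. Tdrd1 ran over the same leave-outs between -0.247 and 0.0167, with 0.000417 without Sohlh1 KO 2. Tdrd6 ran between -0.256 and 0.0804, with 0.0782 without Sohlh1 KO 3 and 0.0131 without Sohlh2 KO 3. The cause of these shifts was not tested.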
